A study of Mus musculus with 6 samples.

Results

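The 38 genes described here encode the machinery of macroautophagy, the route by which a cell wraps part of its cytoplasm in a double membrane and delivers it to lysosomes. They form a list of gene symbols set by the role of each product, drawn up with earlier results of these data known. They belong to the 22601 genes of a table of RNAseq read counts, where all 38 were listed. The libraries came from WT mice (3 libraries, from animals K090, L080 and L082) and from *Slc37a2* KO mice (3 libraries, K089, L078 and L081). *Slc37a2* encodes a sugar transporter of the lysosome-related organelles of osteoclasts, and the KO allele is a gene-trap (tm2a) carried in every cell of the animal, so the loss was not limited to osteoclasts. The mice were kept on the C57BL/6N background, and the headings give an age of 11 weeks and the letter F for every animal. Both genotypes received the same treatment: bone marrow macrophages were grown with M-CSF and then differentiated into osteoclasts for 5 days with RANKL at 10 ng/ml and M-CSF at 2 ng/ml. The methods of the study instead describe RNA from whole femurs and tibias. In these libraries the defining osteoclast genes (*Acp5*, *Ctsk*, *Mmp9* and the rest of a list of 10) summed to between 39869 and 70383 CPM (counts scaled to a library total of 1000000). Of 6 red cell genes 1 was listed, at no more than 0.0674 CPM, and the genes of B cells (3 of 5 listed) and muscle (4 of 5 listed) summed to at most 0.282 and 5.06 CPM. Neutrophil genes (6 of 7 listed) summed to 0.726 to 1.40 CPM in WT and 0.337 to 0.588 CPM in KO libraries, and 9 osteoblast and stromal genes to 829.9 to 1521 CPM in WT and 601 to 1866 CPM in KO libraries.

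Macroautophagy proceeds in steps. The ULK kinase complex starts it, a PI3-kinase complex built around Beclin 1 marks the nascent membrane with phosphatidylinositol 3-phosphate, and WIPI, ATG2 and ATG9 proteins help to supply it with lipid. A pair of ubiquitin-like conjugation reactions then attach LC3 and GABARAP proteins to the membrane, where cargo receptors such as p62 bind them. In osteoclasts some of the conjugation proteins are also known to act outside degradation: LC3 is attached to the ruffled border membrane, through which secretory lysosomes release cathepsin K onto bone. In people, mutations of the p62 gene *SQSTM1* are a known cause of Paget's disease of bone, a disorder of overactive osteoclasts.

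The targeted gene was examined first. *Slc37a2* stood at 1857, 2151 and 2440 scaled CPM in WT libraries K090, L080 and L082 and 45.3, 32.1 and 36.9 in KO libraries K089, L078 and L081, a log2 fold change of −5.82 (standard error 0.20, adjusted p = 7.07e-04 from the quasi-likelihood test of edgeR, adjusted by Benjamini-Hochberg over all genes tested). Scaled CPM are CPM after TMM correction of the library totals, which ran from 27552183 to 42522292 counts. In 12 interferon response genes the libraries did not divide by genotype. Measured from the 6-library mean of each gene, their median deviation was 1.73, 0.64 and −1.05 in WT libraries K090, L080 and L082 and −1.62, 0.97 and −0.62 in KO libraries K089, L078 and L081 on the log2 scale. KO library L078 thus lay with WT libraries K090 and L080, and WT library L082 lay with KO libraries K089 and L081. Both are named below where leaving them out moved a count of autophagy genes.

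No autophagy gene was called different between genotypes. All 38 passed the filter on low counts, and 0 of 38 reached an adjusted p below 0.05, against 0.00742% of the 13483 genes tested (1 gene, *Slc37a2*). An unadjusted p below 0.05 was reached by 0 of the 38, against 0.712% of all genes, and DESeq2's Wald test and edgeR's likelihood ratio test also gave 0 at either limit. With so few genes past that limit, a count of 0 in 38 does not set the members apart from other genes. The values of the genotypes overlapped for every member, against 4.31% of all genes without overlap. The KO libraries lay wholly above the WT libraries for 0 of 38 (1.5% of all genes) and wholly below for 0 of 38 (2.81%). The estimates were small. The median size of the log2 fold change, sign aside, was 0.046 over the 38 genes and 0.098 over all tested genes. Over the 8706 tested genes with a mean over 10 CPM it was 0.073. Of the 38 estimates, 24 lay above 0 and 14 below.

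The intervals set bounds on the size of any genotype difference. The 95% interval of the log2 fold change lay inside −1 to 1, that is short of a doubling or a halving, for 37 of the 38 genes (97.4%), against 78.6% of all tested genes and 93.6% of the 8706 with a mean over 10 CPM. It lay inside −0.5 to 0.5 for 35 of the 38 and inside the limit of 1.5 used in the study for all 38. The exceptions at 0.5 were *Map1lc3a*, *Gabarapl2* and *Atg16l2*, and *Map1lc3a* alone reached beyond 1. The forest plot of fold changes shows these intervals by step of the pathway.

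**Figure D1:**
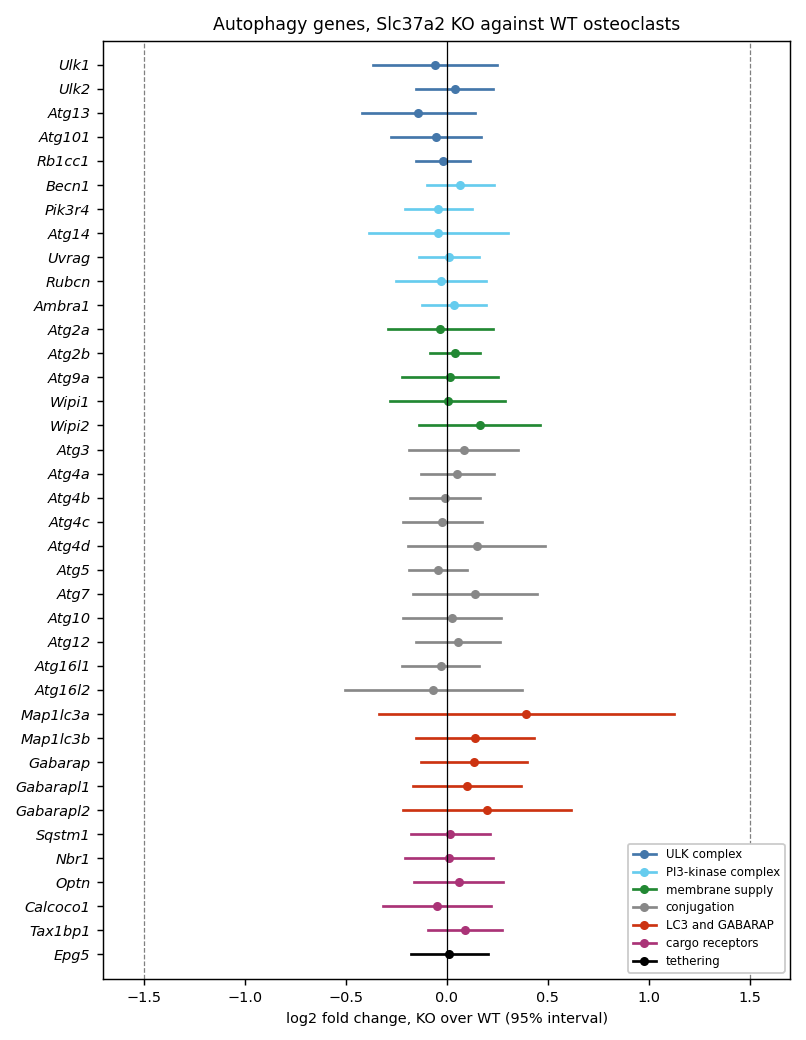
Log2 fold change of KO over WT for the 38 autophagy genes (points) with 95% intervals from edgeR's quasi-likelihood fit (lines), 3 libraries per genotype, coloured by step; dashed lines mark −1.5 and 1.5. Every interval crosses 0, and the one for *Map1lc3a* (−0.34 to 1.12) is the widest.

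The ULK complex joins a kinase (*Ulk1* or *Ulk2*) to the scaffold FIP200 (*Rb1cc1*) and the adaptors *Atg13* and *Atg101*. *Ulk1* stood at 37.6, 38.4 and 31.0 scaled CPM in WT libraries K090, L080 and L082 and 30.4, 39.2 and 33.0 in KO libraries K089, L078 and L081, with a log2 fold change of −0.060 (standard error 0.13, 95% interval −0.37 to 0.25, adjusted p = 0.969). The lowest and the highest value both came from KO libraries, and the WT values lay between them. *Atg13* had the largest estimate below 0 of the 38 genes, −0.14 (standard error 0.12, 95% interval −0.42 to 0.14, adjusted p = 0.969), from 48.1, 46.6 and 37.0 scaled CPM in WT and 37.8, 43.03 and 38.6 in KO. WT libraries K090 and L080 were higher than the KO libraries and WT library L082 was lower than all of them. Without L082 its log2 fold change was −0.23, and the adjusted p 0.825 (edgeR). It was then the 1 member at an unadjusted p below 0.05, against 0.903% of all genes at that limit and lower, and 4 of the 38 lay wholly below the WT libraries, against 9.41% of all genes. *Rb1cc1* had the second narrowest range of the 38 genes, with 60.9, 62.3 and 61.7 scaled CPM in WT and 58.1, 62.9 and 61.3 in KO and an interval of −0.15 to 0.11. The estimates for *Ulk2* (0.038) and *Atg101* (−0.054) were also close to 0.

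Beclin 1 (*Becn1*), the regulatory subunit VPS15 (*Pik3r4*) and either *Atg14* or *Uvrag* form the PI3-kinase complexes of autophagy and of endosomes, Rubicon (*Rubcn*) restrains the *Uvrag* form and is needed for LC3-associated phagocytosis, and *Ambra1* links Beclin 1 to its regulation. *Becn1* was nearly level in WT libraries, at 100.1, 100.3 and 99.7 scaled CPM in WT and 108, 96.2 and 111 in KO. KO libraries K089 and L081 were above the WT range and L078 was below it, and the log2 fold change was 0.067 (standard error 0.068, 95% interval −0.098 to 0.23, adjusted p = 0.969). The exons of *Becn1* share 1394 bases with exons of *Cntd1* on the opposite strand. The strand setting of the counting is not given in the sources used here, and *Cntd1* itself had at most 8 counts in a library. The other 5 genes had estimates from −0.043 (*Atg14*) to 0.035 (*Ambra1*). *Atg14* spread the most, at 21.5, 21.3 and 15.6 scaled CPM in WT and 17.7, 19.5 and 19.6 in KO, with WT library L082 the lowest of the 6.

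The genes for membrane supply are the lipid transfer proteins *Atg2a* and *Atg2b*, the scramblase *Atg9a* and the phosphoinositide readers *Wipi1* and *Wipi2*. *Wipi2*, which recruits the LC3 conjugation complex, had the largest estimate here, 0.16 (standard error 0.12, 95% interval −0.14 to 0.46, adjusted p = 0.969). Its levels were 96.2, 101 and 111 scaled CPM in WT and 126, 95.1 and 124 in KO, and KO library L078 lay below all 3 WT libraries while the other KO libraries lay above them. *Wipi1* had the estimate closest to 0 of all 38 genes, 0.0034 (95% interval −0.28 to 0.29), and went the other way in L078: 20.5, 21.7 and 21.6 scaled CPM in WT and 19.96, 24.9 and 19.1 in KO. *Atg2b* held the narrowest range over the 6 libraries, 52.7, 52.0 and 53.2 scaled CPM in WT and 55.6, 53.8 and 53.1 in KO, and an interval of −0.082 to 0.17. Its groups overlapped narrowly under TMM scaling (53.2 in WT library L082 against 53.1 in KO library L081), and did not overlap under DESeq2's size factors or upper quartile scaling, where 1.91% and 2.14% of all genes lay wholly higher in KO. *Atg2a* (−0.033) and *Atg9a* (0.015) lay near 0. The transcript of *Atg9a* shares 43.9% of its stretches of 50 bases with the overlapping transcript *Gm29253*. That transcript was not among the listed genes, and how reads from the shared stretches were counted is uncertain.

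Conjugation begins when ATG4 proteases trim LC3. The E1-like enzyme *Atg7* activates it, the E2-like *Atg3* passes it on, and *Atg12*, joined to *Atg5* by *Atg10* and held by *Atg16l1*, directs it to the membrane. *Atg5*, one of the genes whose product is known to act at the ruffled border, was at 58.1, 63.2 and 58.1 scaled CPM in WT and 58.9, 56.7 and 58.6 in KO. Its log2 fold change was −0.043 (standard error 0.059, 95% interval −0.19 to 0.10, adjusted p = 0.969), so the interval in fold terms ran from 0.880 to 1.07. *Atg7* was at 50.8, 51.6 and 50.5 scaled CPM in WT and 62.5, 45.1 and 60.9 in KO, with the 3 WT libraries close together, KO libraries K089 and L081 above them and L078 below. Its log2 fold change was 0.14 (standard error 0.13, 95% interval −0.17 to 0.45, adjusted p = 0.969). *Atg4b*, the main LC3 protease, was at 43.2, 45.3 and 39.1 scaled CPM in WT and 42.4, 41.1 and 43.3 in KO and its estimate of −0.0096 (95% interval −0.18 to 0.17) was positive under the size factors of DESeq2 and upper quartile scaling. *Atg4d*, a relative of *Atg4b*, was at 18.6, 19.96 and 19.4 scaled CPM in WT and 24.4, 17.2 and 22.8 in KO, with a log2 fold change of 0.15 (standard error 0.14, 95% interval −0.19 to 0.49, adjusted p = 0.969) and the same order of KO libraries as *Atg7*. For *Atg4d*, 1379 exonic bases overlap *Kri1* on the opposite strand. *Kri1* was counted at 45.2 to 49.8 scaled CPM, above *Atg4d* itself. The remaining 7 conjugation genes had estimates from −0.067 (*Atg16l2*) to 0.084 (*Atg3*). Of the *Atg4a* transcript, 63.6% of the stretches of 50 bases also occur in *Atg4a-ps*, which was not among the listed genes. How such reads were counted is uncertain, and the level of *Atg4a* is uncertain for that reason.

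Promoters of the members were searched for the E-box CACGTG, the core that the lysosome and autophagy regulators TFEB and TFE3 bind. RefSeq promoters of GRCm38.p6 (250 bases before to 50 after each start) were at hand for 32 of the 38 genes, and 5 of these 32 (15.6%) held the letters, against 11.6% of 10609 tested genes with a promoter in the table. Of the 5, 3 are conjugation genes. With a flanking T (TCACGTG or CACGTGA, either strand) the numbers were 4 of 32 (12.5%) and 6.83%. The matches are shown, 5′ to 3′ on the gene's strand, to let the flanks be compared. CACGTG is in capitals, as are a T directly before it and an A directly after it.
Atg14: aacaaaatccCACGTGActggccctg
Rubcn: cctagcacaTCACGTGtacccaggtt
Atg3: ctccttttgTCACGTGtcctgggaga
Atg3: agagtcgagTCACGTGAggccttagg
Atg5: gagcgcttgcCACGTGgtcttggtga
Atg7: tattggtggTCACGTGtgcagtaagt
The stretches lie at chr14:47568420-47568445 for *Atg14* and chr16:32868439-32868464 for *Rubcn*, both on the minus strand. On the plus strand, those of *Atg3* lie at chr16:45158725-45158750 and chr16:45158748-45158773, that of *Atg5* at chr10:44268315-44268340 and that of *Atg7* at chr6:114670954-114670979. By the GENCODE M21 gene bounds, 3 of the promoters belong to starts inside the gene: the stretch lies 2204 bases inside *Atg14*, 9302 inside *Rubcn* and 27857 inside *Atg7*. Those of *Atg3* and *Atg5* lie before the gene. *Atg3* held 2 matches, 23 bases apart from start to start, and the second of them is the one match with both flanks. The 5 genes with a match had log2 fold changes of −0.043 (*Atg14*), −0.027 (*Rubcn*), 0.084 (*Atg3*), −0.043 (*Atg5*) and 0.14 (*Atg7*). *Tfeb* (29.1, 29.0 and 25.7 scaled CPM in WT and 25.7, 26.1 and 29.1 in KO) and *Tfe3* (87.0, 81.6 and 66.9 scaled CPM in WT and 71.0, 82.4 and 70.7 in KO) had log2 fold changes of −0.051 (95% interval −0.26 to 0.16) and −0.072 (95% interval −0.35 to 0.21).

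LC3 and GABARAP proteins are the ubiquitin-like tags that conjugation attaches to membranes, and among their 5 genes were the 2 members with the widest range over the libraries, *Map1lc3a* and *Gabarapl2*. *Map1lc3a* (chr2:155276297-155278073 in GRCm38, plus strand, 4 exons) was at 35.9, 38.5 and 55.8 scaled CPM in WT libraries K090, L080 and L082 and 74.6, 35.0 and 61.7 in KO libraries K089, L078 and L081. It spanned 2.13-fold over the 6 libraries, the widest range of the 38 genes, and WT library L082 lay within the KO range. Its log2 fold change of 0.39 (standard error 0.30, 95% interval −0.34 to 1.12, adjusted p = 0.969) was the largest of the members. The other 4 genes of the family ranged less but in a like order of libraries. *Map1lc3b* (chr8:121590361-121598760, plus strand), the LC3 form most used to follow autophagosomes, was at 125, 138 and 135 scaled CPM in WT and 159, 120.2 and 158 in KO, with a log2 fold change of 0.14 (standard error 0.12, 95% interval −0.15 to 0.43, adjusted p = 0.969). *Gabarap* (chr11:69991143-69994951, plus strand) was at 336, 351 and 369 scaled CPM in WT and 424, 330.0 and 405 in KO and had a log2 fold change of 0.13 (95% interval −0.13 to 0.40). The 3 WT values of *Gabarap* fell inside the KO range, and the same held for its relatives. *Gabarapl1* was at 71.5, 75.1 and 76.0 scaled CPM in WT and 86.1, 66.5 and 86.4 in KO, with 0.10 (95% interval −0.17 to 0.37). *Gabarapl2* was at 42.8, 46.1 and 46.3 scaled CPM in WT and 57.8, 37.9 and 59.5 in KO, with 0.20 (standard error 0.17, 95% interval −0.22 to 0.62, adjusted p = 0.969). For each of the 5 genes, KO libraries K089 and L081 were the highest 2 of the 6 and KO library L078 was the lowest. All 5 estimates lay above 0 with all libraries and under each of 13 alternatives. The annotated processed pseudogenes *Gm6055* and *Gm3724* and other genes share 13.8% of the stretches of 50 bases of *Map1lc3b* and 17.0% of those of *Gabarapl2*. Of the stretches of *Gabarapl1*, 18.6% also occur in the processed transcript *1700101I11Rik*. How the counting treated such reads is not given in the sources used here.

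Cargo receptors bind ubiquitinated or other cargo with one end and LC3 or GABARAP with the other. *Sqstm1*, which encodes p62, was at 885, 912 and 909 scaled CPM in WT libraries K090, L080 and L082 and 928, 850.4 and 961 in KO libraries K089, L078 and L081. The highest and the lowest value both came from KO libraries and differed by 1.13-fold, and the log2 fold change was 0.018 (standard error 0.081, 95% interval −0.18 to 0.21, adjusted p = 0.980). The interval in fold terms ran from 0.884 to 1.16. *Nbr1*, a receptor that pairs with p62, was at 314, 338 and 347 scaled CPM in WT and 350.0, 299.6 and 357 in KO and had a log2 fold change of 0.011 (95% interval −0.21 to 0.23). *Tax1bp1* was at 226, 214 and 230.4 scaled CPM in WT and 246, 218 and 249.6 in KO, with 0.090 (standard error 0.075, 95% interval −0.091 to 0.27, adjusted p = 0.969). For *Sqstm1*, *Nbr1* and *Tax1bp1* KO library L081 had the highest value of all. *Optn*, the receptor optineurin, was expressed at a lower level, 16.4, 16.2 and 18.6 scaled CPM in WT and 18.3, 17.5 and 17.5 in KO, with 0.058 (95% interval −0.16 to 0.28). *Calcoco1*, a receptor for the endoplasmic reticulum, was at 42.4, 47.0 and 36.5 scaled CPM in WT and 38.1, 44.2 and 39.3 in KO and was the receptor with an estimate below 0, −0.049 (95% interval −0.32 to 0.22). KO library L078 had the highest KO value of *Calcoco1*, and WT library L082 the lowest value of the 6. *Epg5*, which tethers autophagosomes to lysosomes, had a log2 fold change of 0.013 (95% interval −0.18 to 0.20).

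**Figure D2:**
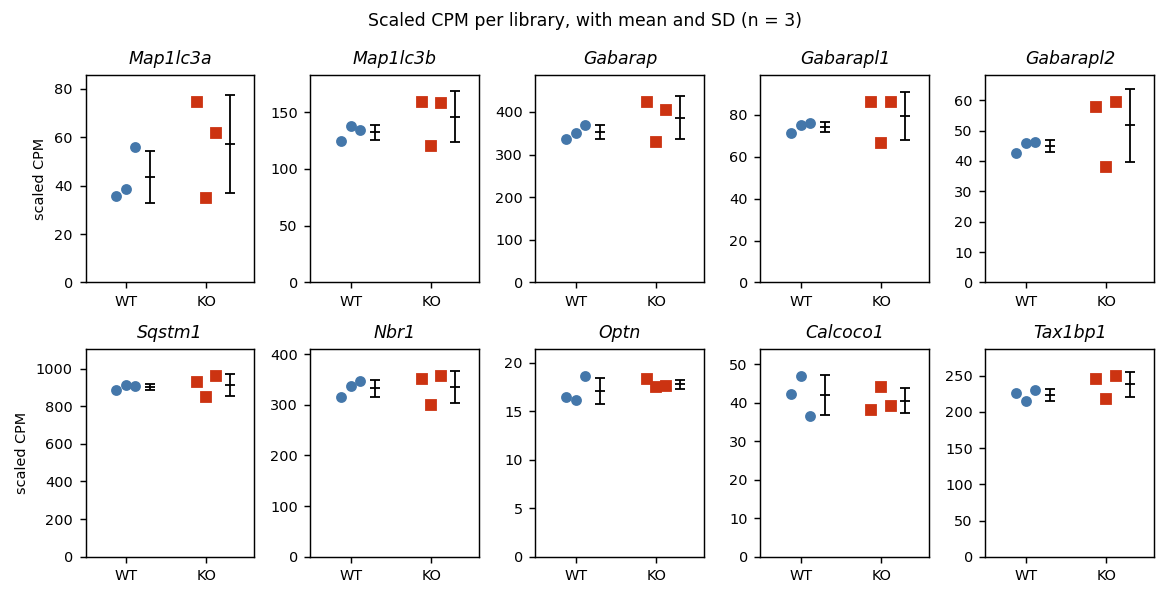
Scaled CPM of the 5 LC3 and GABARAP genes (top) and the 5 cargo receptors (bottom) in each WT (circles) and KO (squares) library, with the mean and SD of 3 libraries beside them; every vertical axis starts at 0. In the top row the lowest square, L078, sits below the WT libraries in each gene.

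The steps of the pathway differed in how their members deviated over the libraries. As the median deviation from the mean of each gene, the LC3 and GABARAP genes were at −0.15, −0.052 and −0.011 in WT libraries K090, L080 and L082 and 0.21, −0.20 and 0.19 in KO libraries K089, L078 and L081 (log2). The conjugation genes were at −0.035, 0.037 and −0.062 in WT libraries K090, L080 and L082 and 0.074, −0.12 and 0.053 in KO libraries K089, L078 and L081, so that K089 and L081 were again high and L078 low. The ULK complex followed another order, with −0.0067, 0.13 and −0.093 in WT libraries K090, L080 and L082 and −0.074, 0.041 and −0.020 in KO libraries K089, L078 and L081. The heat map of deviations shows these steps gene by gene. Osteoclast marker genes varied alongside the LC3 genes. Their median deviation was −0.40, −0.11 and 0.064 in WT libraries K090, L080 and L082 and 0.43, −0.30 and 0.25 in KO libraries K089, L078 and L081, with a summed level of 39869 to 57359 CPM in WT and 44352 to 70383 CPM in KO libraries. All 10 osteoclast markers were counted, none was at 0 in every library, and 0 had groups that did not overlap, against 4.31% of all genes. In a list of 10 genes a count of 0 at that share says little about equal levels. The median deviation of 6 macrophage genes went the other way, at 0.77, 0.51 and −0.85 in WT libraries K090, L080 and L082 and −0.83, 0.70 and −0.39 in KO libraries K089, L078 and L081, and their sums were 1973 to 2368 CPM in WT and 2032 to 2278 CPM in KO libraries. Their part in the levels of the autophagy genes was not tested. In bulk RNA, fewer cells of a type and less RNA per cell cannot be told apart.

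**Figure D3:**
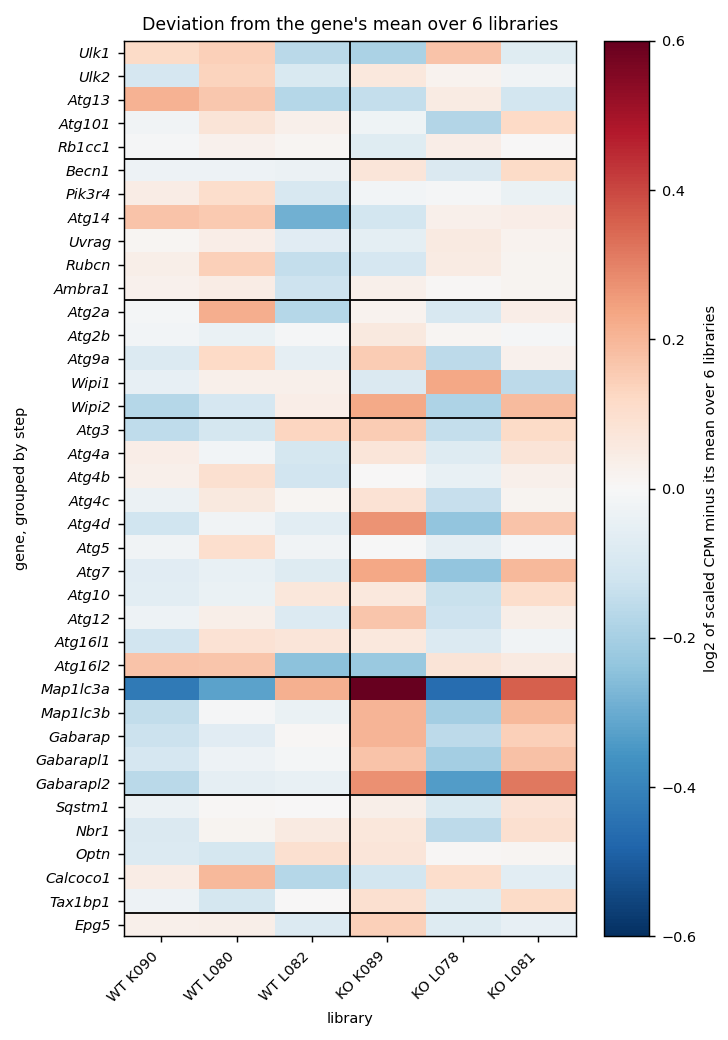
Log2 scaled CPM of each autophagy gene (rows, grouped by step) in each library (columns, WT left and KO right) minus the gene's mean over the 6 libraries; red is above and blue below the mean, and the colour scale ends at 0.6. The LC3 and GABARAP rows are red in KO libraries K089 and L081 and blue in KO library L078.

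The comparison of the LC3 genes moved with single libraries, and most with KO library L078. Without it, 9 of the 38 members reached an unadjusted p below 0.05 (edgeR), all 9 higher in KO: the 5 LC3 and GABARAP genes, *Wipi2*, *Atg7*, *Atg4d* and *Tax1bp1*. An adjusted p below 0.05 was reached by 0 of them (lowest adjusted p = 0.227, edgeR). The same step raised the share of all genes at that unadjusted p from 0.712% to 20.1% (8.64% higher and 11.5% lower), beside 23.7% of the members. The groups, now 3 WT against 2 KO libraries, did not overlap for 13 members that were higher and 1 that was lower, against 19.6% and 22.1% of all genes. The estimate of *Map1lc3a* went from 0.39 to 0.65, that of *Gabarapl2* from 0.20 to 0.38 and that of *Map1lc3b* from 0.14 to 0.26. Leaving out WT library L082 moved *Map1lc3a* about as far, to 0.64. Leaving out KO library K089 moved the same 3 genes to 0.18, 0.14 and 0.097. No label sets L078 apart from the other KO libraries, so the comparison of all 6 is the one given above.

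**Figure D4:**
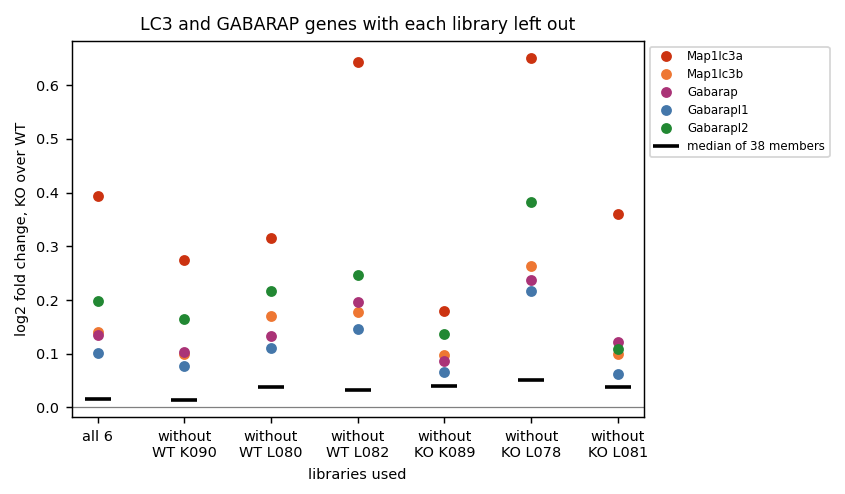
Log2 fold change of KO over WT for the 5 LC3 and GABARAP genes (points) and the median of the 38 autophagy genes (black bars), from the fit of all 6 libraries and from the fits that omit 1 library each. The points run from 0.22 to 0.65 without KO library L078, and the bars stay below every point.

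Levels were compared between genes as scaled CPM per kb of the principal transcript in GENCODE M21. *Sqstm1* ranked first, at 446 ± 18.4 CPM per kb (SD over 6 libraries, both genotypes), and *Gabarap* second, at 273 ± 28.2. Both stood above every other member in each library on this scale. *Tax1bp1* (70.2 ± 4.38) and *Nbr1* (69.8 ± 4.68) followed and did not differ beyond their spread, nor did *Wipi2* (55.6 ± 7.02) and *Map1lc3b* (55.0 ± 6.51) after them. The order depended on the length. Per coding length *Gabarap* (1043 CPM per kb) stood above *Sqstm1* (683). With all exons as the length *Map1lc3b* and *Wipi2* were at 26.9 and 21.1 CPM per kb, below *Atg3* (47.1) and *Map1lc3a* (45.2). By principal transcript the lower end held *Atg14* (5.15 ± 0.601), *Atg4d* (3.42 ± 0.452) and *Atg16l2* (0.701 ± 0.0887). The plot of levels per kb shows the whole order.

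**Figure D5:**
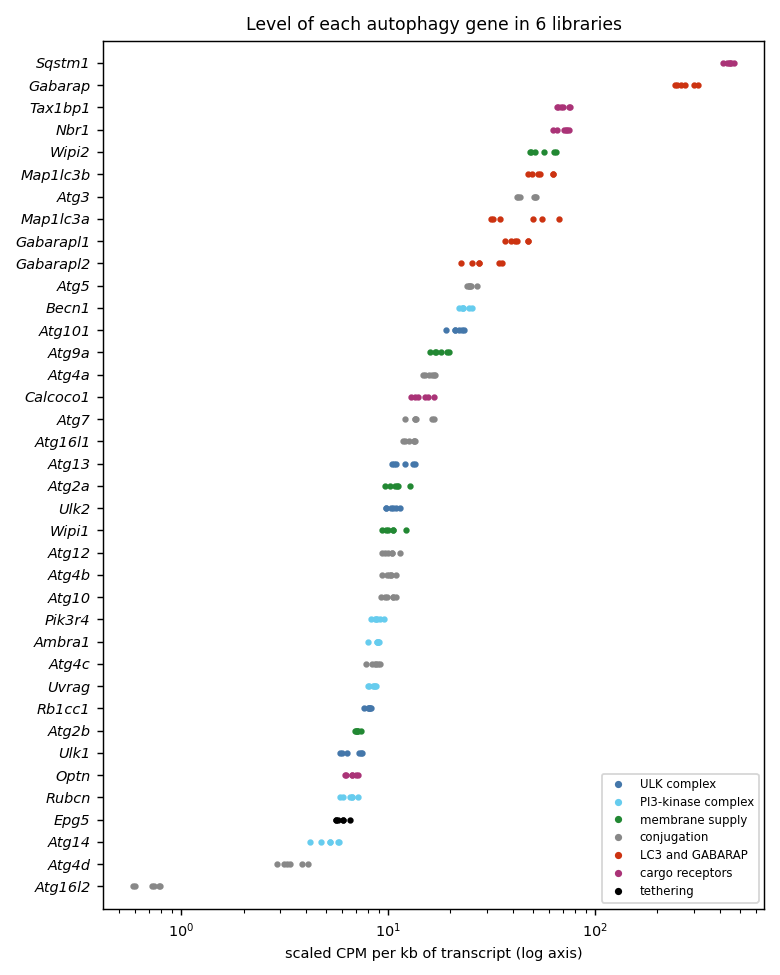
Scaled CPM per kb of principal transcript (log axis) of each autophagy gene in each of the 6 libraries (points), sorted by mean and coloured by step. *Sqstm1* and *Gabarap* lie apart at the top and *Atg16l2* at the bottom.

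Paralogs that serve the same step were compared within each library in 12 pairs, by the log2 ratio of counts per length. *Gabarap* exceeded *Gabarapl1* by 2.69 ± 0.039 (SD, n = 6) and *Gabarapl2* by 3.26 ± 0.12 (SD, n = 6), in 6 of 6 libraries each (exact sign-flip permutation test over libraries, two-sided, p = 0.031, the smallest that 6 libraries allow, and 0.034 with Benjamini-Hochberg adjustment over the 12 pairs). These values apply to 11 of the pairs, each with 1 sign in 6 of 6 libraries. They measure how a ratio repeats over libraries, and do not cover the choice of length or reads from shared sequence. The ratio of *Map1lc3b* over *Gabarap* was −2.32 ± 0.048 (SD, n = 6), so the most used LC3 marker was the lower of the pair. *Atg16l1*, the form with a known role in canonical autophagy, exceeded *Atg16l2* by 4.19 ± 0.25 (SD, n = 6). The ratio of *Wipi1* over *Wipi2* was −2.41 ± 0.29 (SD, n = 6), and that of *Ulk1* over *Ulk2* was −0.65 ± 0.17 (SD, n = 6). *Wipi2* and *Ulk2* were thus the more abundant forms, and *Atg2a* exceeded *Atg2b* by 0.62 ± 0.15 (SD, n = 6). *Atg4b* exceeded *Atg4d* by 1.58 ± 0.18 (SD, n = 6) and *Atg4c* by 0.24 ± 0.087 (SD, n = 6). The ratio of *Atg4b* over *Atg4a* was −0.65 ± 0.066 (SD, n = 6) per transcript length, and 0.29 per coding length. The pair *Map1lc3b* and *Map1lc3a* could not be ordered. The ratio was 0.34 ± 0.32 (SD, n = 6), higher in 5 of 6 libraries (exact sign-flip p = 0.094, adjusted p = 0.094), and it was −0.70 when all exons of each gene were taken as its length. No ratio was called different between genotypes (exact permutation test of 3 against 3, two-sided, lowest p = 0.3 and lowest adjusted p = 0.857 over the 12 pairs). That design cannot give a p below 0.1.

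Genes that act beside the members were taken from 4 further lists, and 0 of their 57 listed genes reached an unadjusted p below 0.05, against 0.712% of all genes. At that share a count of 0 does not set the 57 genes apart from other genes. Among 9 genes for membrane sources and nucleation, which include the catalytic subunit *Pik3c3*, the median log2 fold change was 0.0078. In this list *Sh3glb1*, which encodes the membrane-curving protein Bif-1, was the 1 gene of the 4 lists whose groups did not overlap (1 of 57, against 4.31% of all genes and 1.5% that were higher), at 463, 464 and 464 scaled CPM in WT and 505, 470.1 and 491 in KO and a log2 fold change of 0.077 (standard error 0.064, 95% interval −0.079 to 0.23, adjusted p = 0.969). *Nrbf2*, a partner of the *Atg14* complex, had 0.12 (95% interval −0.095 to 0.34). Among 14 genes for fusion with lysosomes the median was 0.056, and 12 estimates lay above 0. *Plekhm1*, an adaptor of Rab7 whose loss causes osteopetrosis, was at 294, 320.2 and 359 scaled CPM in WT and 448, 273 and 423 in KO, with 0.23 (standard error 0.19, 95% interval −0.24 to 0.70, adjusted p = 0.969), and *Vps11* of the HOPS tether had 0.13 (95% interval −0.086 to 0.35). Of 19 further selective receptors 18 were listed, with a median of 0.068. *Retreg1*, a receptor for the endoplasmic reticulum, had the largest estimate, 0.35 (95% interval −0.30 to 0.99), from 85.5, 96.2 and 122 scaled CPM in WT and 159, 81.2 and 147 in KO, the library order of the LC3 genes. *Stbd1*, a receptor for glycogen, was counted at low levels, 1.27, 3.14 and 3.88 scaled CPM in WT and 1.91, 3.35 and 1.59 in KO, and had −0.26 (95% interval −1.41 to 0.89). Among 16 upstream kinases and regulators, including *Mtor* and the AMPK subunits, the median was −0.00051, with *Prkaa2* at 0.19 (95% interval −0.26 to 0.64) and *Prkaa1* at −0.12 (95% interval −0.49 to 0.25). The same median over all tested genes was −0.023 and over the 38 members 0.016. Without KO library L078, an unadjusted p below 0.05 was reached by 5 of 14 fusion genes and 6 of 18 receptors. It was reached by 1 of 16 regulators and 0 of 9 nucleation genes, beside 20.1% of all genes (8.64% higher and 11.5% lower). The 12 interferon response genes had a median of −0.81, with *Usp18* at −1.17 (95% interval −3.62 to 1.28) and *Ifit3* at −0.98 (95% interval −3.39 to 1.42), and 0 of 12 at an unadjusted p below 0.05.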

How the data were processed

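RNAseq was run on 3 WT and 3 *Slc37a2* KO libraries. The deposited table gives read counts, as whole numbers with no normalization, for 22601 gene symbols (build mm10, bcl2fastq 2.20.0.422, per the labels). Which aligner, counting tool and annotation made it is not given in the sources used here. It also holds the authors' own comparison (edgeR 3.30.3: fold changes and p-values), and a shorter deposited list repeats its leading genes. Neither was used. Columns were assigned to genotypes by heading. They carry no replicate number, and 0 belonged to other samples. Whether libraries are separate cultures is shown by animal numbers alone.

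The fit was made with edgeR 4.0.16 in R 4.3.3 (filterByExpr, TMM, glmQLFit and glmQLFTest, genotype as the one term) and Benjamini-Hochberg adjustment over 13483 genes. Every adjusted p without another name comes from this test. Intervals were taken from the estimate and its standard error. Alternatives were DESeq2 1.42.0, edgeR's likelihood ratio test, other scalings and filters (at least 1 CPM in 3 libraries, or none), a block for the letter of the animal number, and each library left out. The fits were tested on simulated data. Paralog ratios used counts plus 0.5 divided by the length of the principal transcript in GENCODE M21 (GRCm38, the assembly of mm10). Figures were drawn with Python 3.11.15. All members may be named. Per-library values are given for the LC3 and GABARAP genes, the cargo receptors, *Atg5*, *Atg7*, *Atg4b*, *Becn1*, *Ulk1*, the 5 members with the largest and the 3 with the smallest absolute fold change and the 3 with the widest range. From the other lists, genes with groups that did not overlap and the 2 largest estimates are named. *Rb1cc1*, *Atg14*, *Atg2b*, *Tfeb* and *Tfe3* were given with values after these were seen. The members and lists were chosen with earlier results of these data known. Proteomics and metabolomics were not analysed here.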

Additional observations from a re-analysis of the deposited data

How the results depend on the processing

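*Slc37a2* stayed lower in KO and past the threshold in all 13 alternatives. For the 38 members and *Sh3glb1*, 466 of 507 recomputed estimates kept their sign, and none became significant after adjustment. The other 41 belong to 19 members with estimates near 0. With single libraries left out these ran from −0.00043 to 0.097 (*Atg10*), −0.11 to 0.019 (*Atg101*), −0.15 to 0.035 (*Atg14*), −0.092 to 0.022 (*Atg16l1*), −0.17 to 0.043 (*Atg16l2*), −0.095 to 0.078 (*Atg2a*), −0.042 to 0.038 (*Atg4b*), −0.049 to 0.039 (*Atg4c*), −0.037 to 0.093 (*Atg9a*), −0.12 to 0.039 (*Calcoco1*), −0.035 to 0.062 (*Epg5*), −0.027 to 0.087 (*Nbr1*), −0.072 to 0.0022 (*Pik3r4*), −0.045 to 0.034 (*Rb1cc1*), −0.077 to 0.040 (*Rubcn*), −0.17 to 0.039 (*Ulk1*), −0.0020 to 0.12 (*Ulk2*), −0.014 to 0.065 (*Uvrag*) and −0.12 to 0.097 (*Wipi1*). *Atg4b* was 0.0089 under the size factors of DESeq2, 0.0013 under upper quartile scaling and 0.0083 in DESeq2. *Wipi1* was −0.0027 without the filter. Members higher with groups that did not overlap numbered 1 (*Atg2b*) under either other scaling (1.91% and 2.14% of all genes). With single libraries left out they numbered 0 to 13, those lower 0 to 4, and those at an unadjusted p below 0.05 0 to 9 (1, *Atg13*, without WT library L082). The matching counts were 0 to 5 of 14 fusion genes, 0 to 6 of 18 other receptors and 0 to 1 of 16 regulators. The highest counts came without KO library L078, apart from those lower, which came without WT library L082 (9.41% of all genes). Without KO library L078, the counts of all genes rose as well, and 19.6% of them lay wholly higher. At an unadjusted p below 0.05 (edgeR), 8.64% of all genes were higher and 11.5% lower. The 23.7% of members at that limit were all higher. For all 9 of them L078 had the lowest KO value, so leaving it out raises their estimates. The list was also drawn up with earlier results known, so its share is not a test against the 8.64%. Why L078 differed was not tested.

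Paralog ratios moved with the length used. Per coding length, the log2 ratio was 1.48 for *Map1lc3b* over *Map1lc3a*, 2.26 for *Gabarap* over *Gabarapl1*, 2.94 for *Gabarap* over *Gabarapl2*, −0.68 for *Gabarapl2* over *Gabarapl1*, −1.5 for *Map1lc3b* over *Gabarap*, 3.18 for *Atg16l1* over *Atg16l2*, and 0.29, 0.85 and 1.33 for *Atg4b* over *Atg4a*, *Atg4c* and *Atg4d*. With all exons as the length, a choice made after seeing the data, it was −0.70 for *Map1lc3b* over *Map1lc3a*, −3.35 for *Map1lc3b* over *Gabarap* and −2.07 for *Wipi1* over *Wipi2*.

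No paired analysis was possible because the column headings carry no replicate number. A block for the letter of the animal number gave 0 members at an unadjusted p below 0.05. With 3 libraries per genotype, differences of a size within the intervals above are not excluded by these data.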
